A study of Mus musculus with 6 samples.

Results

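Unstimulated macrophages transcribed most of the classical inflammatory cytokine genes weakly, and of those that were expressed some were higher and some lower after the loss of Acly. The genes examined were 10 of the 24562 gene symbols in the table, chosen by name: *Tnf*, *Il1a*, *Il1b*, *Il1rn*, *Il6*, *Il10*, *Il12b*, *Il18*, *Tgfb1* and *Nos2*. The antagonist gene *Il1rn* and *Tnf* were higher in AclyM-KO macrophages. *Il1a* and *Il18* were lower. *Tgfb1* and *Il10* did not pass the test, and *Il1b*, *Il6*, *Il12b* and *Nos2* had too few reads to be tested.

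The cells were bone marrow-derived macrophages (BMDMs), grown with L929-conditioned medium, which supplies the macrophage growth factor M-CSF, and labelled naive, that is, left without a stimulus. The AclyM-KO group (genotype KO in the labels) came from C57BL/6J mice with floxed *Acly* and a Cre recombinase driven by the *Lyz2* promoter, which is active in macrophages but also in other myeloid cells such as neutrophils. The control group (genotype WT in the labels) carried the floxed allele without Cre, as far as the study describes its control mice, and the series names female mice, whereas the study's reporting summary names both sexes for its culture experiments, with an age range in weeks for these as a whole and none for single libraries. Each group had 3 libraries, and the study describes its culture experiments as technical replicates from pooled mice, so every p-value measures the spread between these libraries and need not cover the variation between mice. Acly cleaves citrate to acetyl-CoA in the cytosol. *Acly* itself fell from 229.6 ± 8.18 to 96.8 ± 3.06 CPM (mean ± SD, n = 3 each, adjusted p 5.58e-07 in edgeR), where CPM are counts scaled to library size by edgeR's TMM method.

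Counts were given per RefSeq transcript, with 19327459 to 44507233 per library over all transcripts, and AclyM-KO replicate 2 was the deepest, at 2.20 times the mean of the other 5 libraries. A single count equals 0.0378 CPM in AclyM-KO replicate 2 and 0.0747 to 0.0909 CPM in the others. The 8 macrophage markers, among them *Adgre1*, *Csf1r*, *Cd68*, *Itgam* and *Mertk*, were all expressed, with a summed level of 8822 to 9004 CPM in control and 7195 to 8445 CPM in AclyM-KO libraries, and 3 of these 8, *Csf1r* and *Mertk* among them, were lower in AclyM-KO macrophages (37.5%, against 5.65% of all genes tested). The 7 measured lymphocyte markers summed to at most 0.299 CPM and the 7 fibroblast markers to at most 0.717 CPM in any library. The 9 neutrophil markers summed to 24.8 to 26.3 CPM in control and 24.3 to 24.9 CPM in AclyM-KO libraries, with *Ly6g* at 0 in 5 of 6, and 0 of the 3 that were tested passed. The 7 dendritic cell markers summed to 14.99 to 20.4 CPM in control and 21.2 to 30.5 CPM in AclyM-KO libraries, nearly all of it *Itgax*, which did not pass the test. The 5 monocyte markers summed to 14.4 to 16.4 CPM in control and 14.6 to 16.1 CPM in AclyM-KO libraries. The 6 mast cell and basophil markers summed to 9.48 to 10.5 CPM in control and 18.8 to 23.9 CPM in AclyM-KO libraries, nearly all of it *Kit*, which was higher in AclyM-KO macrophages, while *Mcpt4*, *Fcer1a* and *Ms4a2* were at 0 in every library. The part of these differences, and of the depth of AclyM-KO replicate 2, in the cytokine results was not tested. In such bulk RNA, fewer cells that express a gene and less RNA per cell cannot be told apart.

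Inflammatory cytokines are secreted messengers by which macrophages alert other cells. TNF is shed from the cell surface and binds TNF receptors, IL-1α and IL-1β share the receptor IL-1R1, and IL-1RA, the product of *Il1rn*, occupies that receptor without signalling. IL-1β and IL-18 are made as inactive precursors that caspase-1 cleaves in inflammasomes. IL-6 and IL-12 p40, the product of *Il12b*, are made after stimulation of Toll-like receptors, IL-10 and TGF-β1 restrain inflammation, and *Nos2* encodes the inducible nitric oxide synthase, an enzyme rather than a cytokine.

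The 150 bases upstream of annotated starts are shown for *Il1rn*, *Tnf* and *Il18*, which were higher or lower, and, as the contrast, for the abundant *Tgfb1* and the nearly silent *Il6*. The sequences are from RefSeq (GRCm38.p6, the assembly of mm10), which gave windows for 8 of the 10 genes. For *Il1rn* a further downstream window (chr2:24345221-24345370), which overlaps the printed downstream window and held no match, is not printed. Each is written 5′ to 3′ on the strand of the gene. Capitals mark matches to the motifs searched, namely the TATA box (TATAAA, sense strand only) and, on both strands, AP-1 (TGANTCA), C/EBP (TTGCNNAA), a PU.1 core (GAGGAA), the GC box (GGGCGG), a CRE core (TGACG) and the NF-κB consensus.
*Il6* (chr5:30012964-30013113, plus strand): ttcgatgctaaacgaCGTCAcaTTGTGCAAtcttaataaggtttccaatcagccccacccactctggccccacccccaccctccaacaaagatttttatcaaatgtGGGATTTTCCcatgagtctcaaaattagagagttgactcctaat
*Tnf* (chr17:35202008-35202157, minus strand): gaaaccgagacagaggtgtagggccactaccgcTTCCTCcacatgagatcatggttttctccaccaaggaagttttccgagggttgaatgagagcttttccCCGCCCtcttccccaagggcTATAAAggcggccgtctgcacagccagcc
*Il1rn*, 5′-most start (chr2:24336710-24336859, plus strand): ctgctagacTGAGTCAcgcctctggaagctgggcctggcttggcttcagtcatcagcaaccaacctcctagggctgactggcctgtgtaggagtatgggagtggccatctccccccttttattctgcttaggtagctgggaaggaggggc
*Il1rn*, downstream start (chr2:24345141-24345290, plus strand): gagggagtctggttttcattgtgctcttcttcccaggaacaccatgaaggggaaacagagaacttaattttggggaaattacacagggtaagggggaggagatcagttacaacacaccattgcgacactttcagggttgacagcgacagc
*Il18* (chr9:50554550-50554699, plus strand): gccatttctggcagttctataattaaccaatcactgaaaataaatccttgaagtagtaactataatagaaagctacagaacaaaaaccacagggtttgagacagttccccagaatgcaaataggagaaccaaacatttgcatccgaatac
*Tgfb1* (chr7:25686852-25687001, plus strand): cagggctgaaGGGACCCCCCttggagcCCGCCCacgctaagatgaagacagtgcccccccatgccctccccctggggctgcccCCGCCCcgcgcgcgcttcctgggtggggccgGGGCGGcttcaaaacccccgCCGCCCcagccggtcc
The *Tgfb1* window had 76.0% G and C, against a median of 54.0% over 32851 promoter windows of the same length, and held 4 GC boxes, a motif found in 28.6% of all windows and also once in that of *Tnf*. The *Il18* window had 36.7% G and C and no match. The TATA box was in the windows of *Tnf*, *Il1a* and *Il1b*, against 4.84% of all windows. For *Il1a* and *Il1b*, whose windows are not printed, the RefSeq start lies downstream of the start of the counted transcript, so that the window lies wholly (*Il1a*) or in part (*Il1b*) within that transcript's span. The PU.1 core was in those of *Tnf*, *Il1a* and *Il12b* (14.5% of all windows), and AP-1 in those of *Il1a* and the 5′-most start of *Il1rn* (4.24%). The window of *Il6* held the C/EBP motif (5.46%), the CRE core (13.3%) and the NF-κB consensus (4.60%), the last also found in that of *Tgfb1*. No matches to different motifs overlapped in these windows. A match describes letters only.

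Levels between genes were compared as CPM per kilobase of transcript. *Tgfb1* stood far above the others, at 249.7 ± 1.95 in control and 248.7 ± 31.7 in AclyM-KO libraries (SD, n = 3 each), at percentile 99.0 of 15363 genes. It made up 85.4 to 86.2% of the summed level of the 10 genes in control and 74.5 to 84.3% in AclyM-KO libraries. In control macrophages *Il1rn* followed at a mean of 19.6, *Il18* at 10.3, *Tnf* at 7.49, *Il1a* at 2.17, *Il10* at 1.10 and *Il1b* at 0.609 CPM per kilobase. *Nos2*, *Il6* and *Il12b* reached at most 0.138 in any control library, where *Il6* was counted on the shorter of 2 transcripts with equal totals, so that its level per length is the higher of the possible values. Neighbours in this order did not overlap between control libraries except *Il10* with *Il1b*, *Nos2* with *Il6*, and *Il6* with *Il12b*. In AclyM-KO macrophages *Tnf*, at 10.8, stood above *Il18*, at 6.32, and the libraries of *Il10*, at 1.30, overlapped those of *Il1a*, at 1.07. *Il1rn* accounted for 45.6 to 48.8% of the summed level without *Tgfb1* in control and for 63.3 to 68.5% in AclyM-KO libraries, so that the groups did not overlap.

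**Figure D1:**
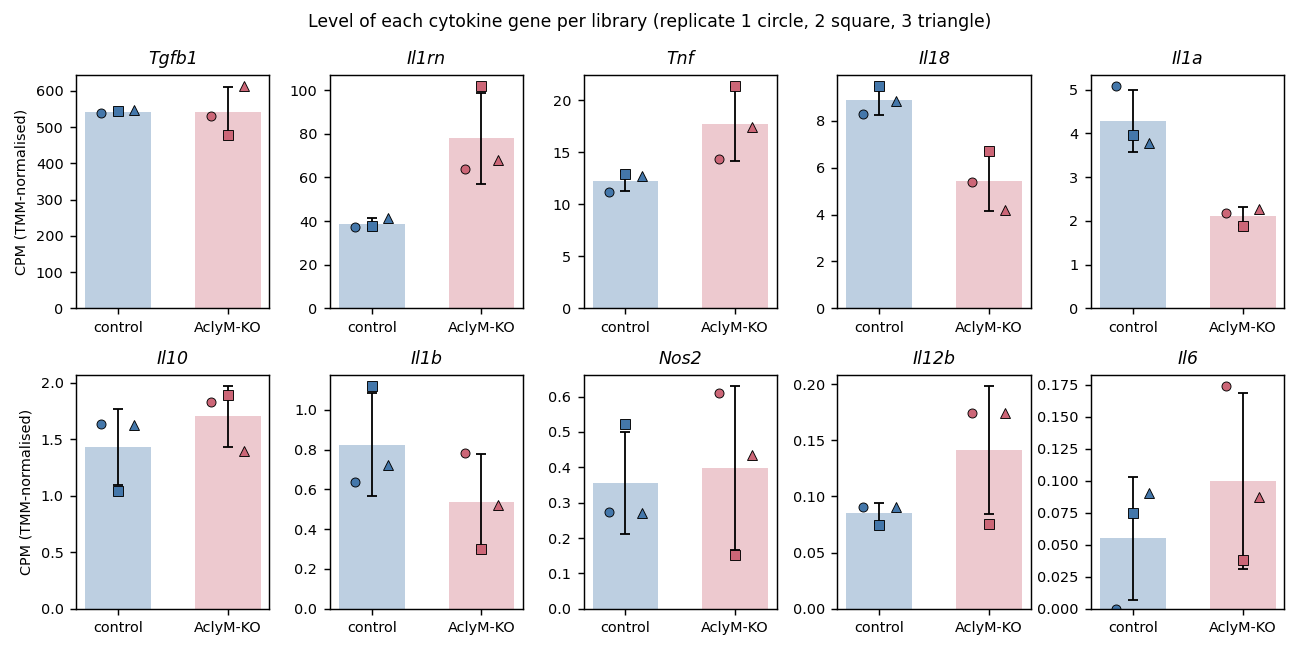
CPM of the 10 genes in each library (points, replicate 1 circle, replicate 2 square, replicate 3 triangle), with the group mean as a bar and the SD as an error bar, each panel on its own linear axis from 0. *Il1rn*, *Tnf*, *Il18* and *Il1a* show groups that do not overlap, and *Tgfb1* shows similar means.

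Of the 10 genes, 6 passed edgeR's filter on low counts, and 4 of these 6 differed between AclyM-KO and control macrophages at an adjusted p of 0.05 or less, 2 higher and 2 lower. Over all 11470 genes tested, 12.3% passed, 6.70% higher and 5.65% lower. Among the 6 tested, library values of the groups did not overlap in these 4 genes, as in 32.8% of all genes tested. The log2 fold changes of the 6 had a median of 0.14, against 0.00 over all genes tested.

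*Il1rn* (NM_001039701, chromosome 2, 24336860 to 24351491 of mm10) showed the smallest adjusted p of the 6. It was at 37.2, 37.9 and 41.6 CPM in control replicates 1, 2 and 3 and at 63.9, 102 and 67.7 CPM in AclyM-KO replicates 1, 2 and 3. Every AclyM-KO library lay above every control library, and AclyM-KO replicate 2 was highest. The log2 fold change was 1.01 (standard error 0.153, 95% interval 0.68 to 1.35, adjusted p 0.00186 in edgeR), a 2.02-fold higher level. Without AclyM-KO replicate 2 it was 0.76 (adjusted p 8.26e-07). The starts of *Il1rn* give secreted and intracellular forms of IL-1RA. The 3 *Il1rn* rows of the table had nearly the same totals (5590, 5574 and 5578 counts), so these counts do not separate the starts.

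*Il1a* (NM_010554, chromosome 2, 129299609 to 129310186), an agonist of the receptor that IL-1RA blocks, was lower. It was at 5.09, 3.96 and 3.79 CPM in control replicates 1, 2 and 3 and at 2.17, 1.89 and 2.27 CPM in AclyM-KO replicates 1, 2 and 3. All AclyM-KO libraries were below all control libraries and close together. The gene fell by 1.04 on the log2 scale (standard error 0.219, 95% interval -1.52 to -0.56, adjusted p 0.0103 in edgeR), a 2.05-fold lower level. Without control replicate 1, its highest library, the change was -0.90 and the adjusted p 0.0667. An exon of *Il1a* overlaps *Gm14023* on the opposite strand, and reads of the pair may not be separable, since the counting used default settings and the study does not spell out the strand option.

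*Il1b* (NM_008361, chromosome 2, 129364569 to 129371164), whose product acts on the same receptor, was scarce. Its counts were 7, 15 and 8 in control and 9, 8 and 6 in AclyM-KO replicates 1, 2 and 3, below the filter. The libraries overlapped, and the highest count came from control replicate 2. Summed over each group this was 0.845 CPM (exact Poisson 95% interval 0.570 to 1.21) in control and 0.465 CPM (0.295 to 0.698) in AclyM-KO libraries, intervals that cover counting error only. When the filter was dropped, edgeR gave a log2 change of -0.77 (adjusted p 0.431), and no difference could be detected at this depth. Exons of *Il1b* overlap *Il1bos* on the opposite strand.

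The balance between antagonist and agonists was compared within each library, as the ratio of *Il1rn* to the sum of *Il1a* and *Il1b*, with 0.5 added to each count and each gene divided by its length. This ratio was 6.04, 6.64 and 8.36 in control and 18.6, 42.7 and 21.5 in AclyM-KO replicates 1, 2 and 3. Antagonist RNA exceeded agonist RNA in all 6 libraries, and the groups did not overlap. The ratio is made of the same counts as the separate tests of *Il1rn* and *Il1a*, so this separation is not an independent result. The log2 ratio was 2.80 ± 0.241 in control and 4.69 ± 0.642 in AclyM-KO libraries (SD, n = 3 each), a difference of 1.89 with an exact permutation p of 0.10 (two-sided), the smallest that 3 libraries against 3 can give. *Il1r1*, the signalling receptor, was weakly expressed at 1.23 ± 0.136 and 0.855 ± 0.287 CPM in control and AclyM-KO libraries (log2 change -0.42, adjusted p 0.465), and *Il1rap*, its accessory subunit, was at 12.1 ± 1.40 and 10.8 ± 2.02 CPM (log2 change -0.14, adjusted p 0.618 in edgeR). Neither passed the test. The decoy receptor gene *Il1r2* had 2 to 9 counts per library and was not tested.

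*Il18* (NM_008360, chromosome 9, 50554700 to 50581841) was at 8.27, 9.48 and 8.84 CPM in control replicates 1, 2 and 3 and at 5.39, 6.72 and 4.18 CPM in AclyM-KO replicates 1, 2 and 3. The groups did not overlap, and AclyM-KO replicate 3 was lowest. The gene fell by 0.67 on the log2 scale (standard error 0.182, 95% interval -1.06 to -0.27, adjusted p 0.0342 in edgeR), a 1.59-fold lower level. The adjusted p lay between 0.0570 and 0.130 when any of the 3 control libraries, AclyM-KO replicate 1 or AclyM-KO replicate 3 was left out, with log2 changes of -0.72 to -0.53, and was 0.00170 without AclyM-KO replicate 2 (-0.89).

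*Il18bp*, which encodes the soluble protein that captures IL-18, fell from 29.7 ± 1.20 to 12.1 ± 0.602 CPM (SD, n = 3 each, log2 change -1.30, adjusted p 1.34e-05 in edgeR). An exon of *Il18bp* overlaps *Numa1* on the opposite strand. The ratio of *Il18* to *Il18bp* per length was 0.519, 0.618 and 0.531 in control and 0.842, 1.08 and 0.614 in AclyM-KO replicates 1, 2 and 3. AclyM-KO replicate 3 lay within the control range. The log2 ratios differed by 0.57, with an exact permutation p of 0.20 (two-sided), by 0.37 without AclyM-KO replicate 2.

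**Figure D2:**
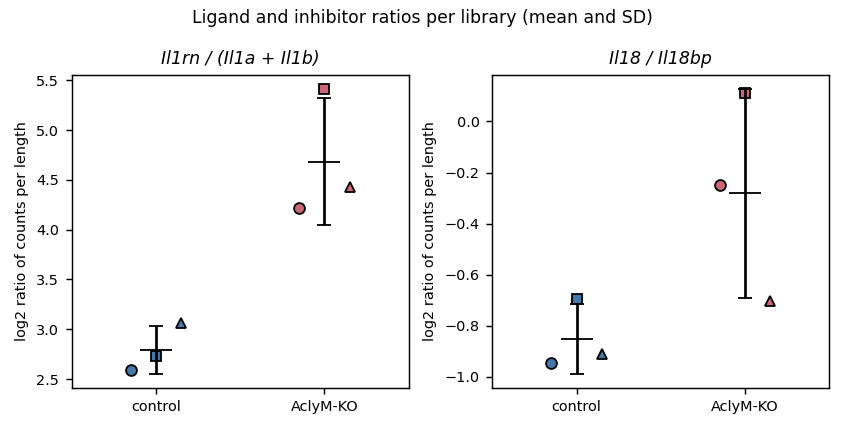
Log2 ratio of *Il1rn* to *Il1a* plus *Il1b* (left) and of *Il18* to *Il18bp* (right) in each library, per transcript length, with the group mean (horizontal line), the SD (error bar) and replicates 1, 2 and 3 as circle, square and triangle. The groups are apart on the left, and AclyM-KO replicate 3 lies within the control range on the right.

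Of the 22 genes of the IL-1 and IL-18 axis, 20 were tested, 0 were higher and 1, *Il18bp*, was lower (5.0%, against 12.3% of all genes tested), and their log2 fold changes had a median of -0.05. Without AclyM-KO replicate 1, 4 of them were called, 2 higher and 2 lower. In that setting 1642 of all 11572 genes tested were called, against 1416 of 11470 with all 6 libraries. *Casp1*, the protease that matures both cytokines, was at 93.7 ± 0.969 and 115 ± 23.8 CPM in control and AclyM-KO libraries (SD, n = 3 each, log2 change 0.30, adjusted p 0.126 in edgeR). Its libraries did not overlap, with AclyM-KO replicate 2 highest at 142 CPM, and it passed the test only without AclyM-KO replicate 1 (adjusted p 0.0358) among the 15 alternatives run. Without AclyM-KO replicate 2 the log2 change of *Casp1* was 0.11. The inflammasome sensor *Nlrp3* (log2 change -0.11, adjusted p 0.412), the adaptor *Pycard* (log2 change -0.16, adjusted p 0.285) and the pore-forming *Gsdmd* (log2 change -0.01, adjusted p 0.947) did not pass. The sign for *Gsdmd* was positive with total counts only, with limma-voom and without control replicate 1 or AclyM-KO replicate 2.

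*Tnf* (NM_013693, chromosome 17, 35199367 to 35202007) was at 11.2, 12.9 and 12.7 CPM in control replicates 1, 2 and 3 and at 14.4, 21.4 and 17.4 CPM in AclyM-KO replicates 1, 2 and 3. Every AclyM-KO library was above every control library, AclyM-KO replicate 2 by most. The log2 fold change was 0.55 (standard error 0.151, 95% interval 0.22 to 0.88, adjusted p 0.0357 in edgeR), a 1.46-fold higher level. Leaving out any single library but AclyM-KO replicate 1 gave an adjusted p of 0.0516 to 0.149 with log2 changes of 0.37 to 0.59, the smallest change without AclyM-KO replicate 2. Without AclyM-KO replicate 1 the change was 0.67 (adjusted p 0.00929).

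All 13 genes of the TNF axis were tested, of which 0 were higher and 1 was lower (7.69%, against 12.3% of all genes tested), and their log2 fold changes had a median of -0.08. This count was 0 without control replicate 1, 2 or 3 and 2 without AclyM-KO replicate 1. It was 5 without AclyM-KO replicate 2 (2 of them higher) and 4 with limma-voom (1 higher). Calls over all genes moved too, from 1416 to between 598 and 658 without a control library. They were 1642 without AclyM-KO replicate 1, 2136 without AclyM-KO replicate 2 and 2187 with limma-voom. With all 6 libraries the lower gene was *Birc3*, a ubiquitin ligase of TNF receptor complexes, which fell from 47.8 ± 2.77 to 36.3 ± 5.29 CPM (SD, n = 3 each, log2 change -0.41, adjusted p 0.0340 in edgeR). *Adam17*, the protease that sheds TNF, was at 281 ± 4.69 and 255 ± 8.48 CPM in control and AclyM-KO libraries (log2 change -0.14, adjusted p 0.172). The receptor genes were at 179 ± 2.24 and 169 ± 15.2 CPM for *Tnfrsf1a* (log2 change -0.08, adjusted p 0.524) and at 695 ± 22.8 and 577 ± 96.4 CPM for *Tnfrsf1b* (log2 change -0.27, adjusted p 0.114). These 3 did not pass, although *Adam17* and *Tnfrsf1b* passed with limma-voom (adjusted p 0.0402 and 0.0370) and under some other alternatives.

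*Tgfb1* (NM_011577, chromosome 7, 25687002 to 25705077) was at 538, 545 and 546 CPM in control replicates 1, 2 and 3 and at 531, 477 and 614 CPM in AclyM-KO replicates 1, 2 and 3. The AclyM-KO libraries lay on both sides of the control libraries and were wider apart. The log2 fold change was -0.01 (95% interval -0.19 to 0.18, adjusted p 0.972 in edgeR), and its sign was not fixed, with values from -0.11 to 0.08 as single libraries were left out.

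Of the 22 genes of the TGF-β axis, which holds ligands, activators, receptors, signalling genes and targets, 17 were tested, of which 1 was higher and 2 were lower (17.6%, against 12.3% of all genes tested), and their log2 fold changes had a median of -0.01. Without AclyM-KO replicate 2, 5 were called, where 2136 of all 11554 genes tested were called, against 1416 of 11470 with all libraries. The signalling receptor gene *Tgfbr2* fell from 395 ± 5.13 to 290.4 ± 40.2 CPM (SD, n = 3 each, log2 change -0.44, adjusted p 0.00891 in edgeR). *Thbs1*, whose product can activate latent TGF-β, fell from 233 ± 6.54 to 156 ± 24.8 CPM (log2 change -0.58, adjusted p 0.00326). *Tgfbi*, an extracellular matrix protein gene named for its induction by TGF-β, rose from 83.3 ± 6.26 to 123 ± 4.67 CPM (log2 change 0.56, adjusted p 0.00104). *Tgfbr1* (log2 change 0.02, adjusted p 0.875) and *Nrros*, which tethers latent TGF-β1 to myeloid cells (log2 change -0.01, adjusted p 0.957), did not pass, and the sign of each turned with limma-voom.

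*Il10* (NM_010548, chromosome 1, 131019845 to 131024970) was at 1.64, 1.05 and 1.62 CPM in control replicates 1, 2 and 3 and at 1.83, 1.89 and 1.39 CPM in AclyM-KO replicates 1, 2 and 3. The libraries of the groups overlapped. The log2 fold change was 0.29 with a wide 95% interval of -0.34 to 0.92 (adjusted p 0.569 in edgeR). *Il10ra*, the ligand-binding receptor chain, fell from 205 ± 10.1 to 141 ± 36.9 CPM (SD, n = 3 each, log2 change -0.55, adjusted p 0.0369), with 99.1 CPM in AclyM-KO replicate 2, and did not pass without control replicate 1, 2 or 3 (adjusted p up to 0.128). Without AclyM-KO replicate 2 its log2 change was -0.33 (adjusted p 3.49e-04). *Il10rb*, the shared chain, was at 408 ± 4.63 and 395 ± 9.51 CPM (log2 change -0.05, adjusted p 0.651).

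*Il6* (NM_001314054, chromosome 5, 30013114 to 30019975) and *Il12b* (NM_001303244, chromosome 11, 44400063 to 44414677) were near the limit of detection. The counts of *Il6* were 0, 1 and 1 in control and 2, 1 and 1 in AclyM-KO replicates 1, 2 and 3, and *Il12b* had 1 count in each control and 2 counts in each AclyM-KO library. A count of 0 in control replicate 1 allows up to 0.273 CPM, taking 3 counts as the limit. With so few reads neither gene is given a fold change. Of the 20 genes of the IL-6, IL-10 and IL-12 axis, 16 were tested, 0 were higher and 1, *Il10ra*, was lower (6.25%, against 12.3% of all genes tested), and their log2 fold changes had a median of -0.09. This count was 0 without control replicate 1, 2 or 3, 4 without AclyM-KO replicate 1 or 2, 3 with DESeq2 and 4 with limma-voom. Over all genes, 598 to 658 were called without a control library, and 1642 and 2136 without AclyM-KO replicate 1 and 2. DESeq2 called 1379 and limma-voom 2187, against 1416 in the main test. *Il12a*, the partner subunit of IL-12, was at 0 in every library and *Il23a* had at most 1 count. The receptor genes of IL-6 were well expressed, *Il6ra* at 137 ± 6.81 and 104 ± 25.3 CPM (log2 change -0.40, adjusted p 0.0852 in edgeR) and *Il6st* at 306 ± 19.8 and 289.6 ± 7.87 CPM (log2 change -0.08, adjusted p 0.482), and *Il6ra* passed under 6 of the 15 alternatives, namely DESeq2, limma-voom, no filter, the replicate block, and without AclyM-KO replicate 1 or 2 (adjusted p 0.0123 to 0.0368), with a log2 change of -0.21 in the last case.

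*Nos2* (NM_010927, chromosome 11, 78920787 to 78960226) had counts of 3, 7 and 3 in control and 7, 4 and 5 in AclyM-KO replicates 1, 2 and 3. The libraries overlapped. Over each group this was 0.366 CPM (exact Poisson 95% interval 0.195 to 0.626) and 0.324 CPM (0.185 to 0.525), while the mean of the library values was 0.355 CPM in control and 0.399 CPM in AclyM-KO libraries, the other way round, with AclyM-KO replicate 2, the deepest library, lowest at 0.151 CPM. When the filter was dropped, edgeR gave a log2 change of -0.08 (adjusted p 0.958).

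Of 14 genes of nitric oxide and arginine metabolism, 11 were tested, 4 were higher and 1 was lower (45.5%, against 12.3% of all genes tested), and their log2 fold changes had a median of 0.25. This count of 5 was 1 without control replicate 1, 2 without control replicate 3 and 3 without AclyM-KO replicate 3. Calls over all genes fell from 1416 to 598, 628 and 1051 in these settings. *Ass1*, which regenerates arginine from citrulline, rose from 6.70 ± 0.334 to 11.9 ± 1.40 CPM (SD, n = 3 each, log2 change 0.83, adjusted p 0.00370 in edgeR). *Gch1*, the first enzyme of tetrahydrobiopterin synthesis, rose from 13.2 ± 0.537 to 19.5 ± 2.19 CPM (log2 change 0.57, adjusted p 0.00954), with an adjusted p of up to 0.0551 without control replicate 1 or 3. The arginine transporter genes moved in opposite directions, *Slc7a1* from 38.1 ± 8.18 to 67.5 ± 20.1 CPM (log2 change 0.84, adjusted p 0.0165) and *Slc7a2* from 5.02 ± 0.580 to 2.89 ± 0.284 CPM (log2 change -0.80, adjusted p 0.0195). *Slc7a1* did not pass without control replicate 1 (adjusted p 0.0755) or with DESeq2 (0.0517), and its log2 change was 0.55 without AclyM-KO replicate 2. *Slc7a2* did not pass without control replicate 1, control replicate 3 or AclyM-KO replicate 3 (up to 0.103).

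**Figure D3:**
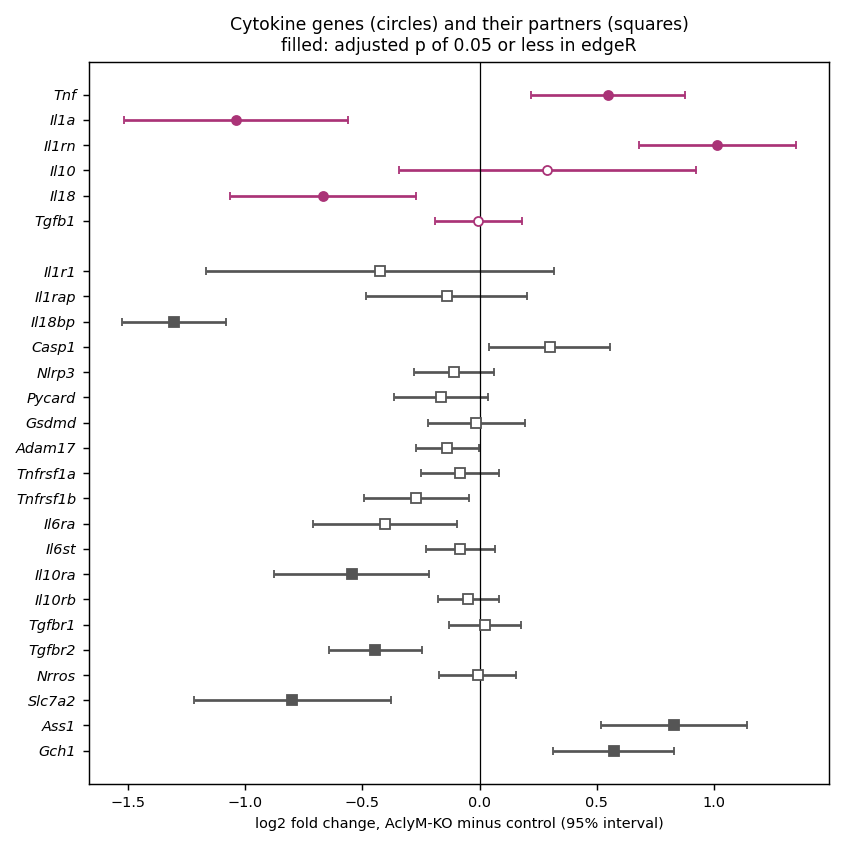
Log2 fold change (AclyM-KO minus control) with its 95% interval for the 6 tested genes (circles) and for tested receptors, inhibitors and enzymes (squares), where filled symbols have an adjusted p of 0.05 or less in edgeR. *Il1rn* and *Tnf* lie to the right of 0, *Il1a*, *Il18* and *Il18bp* to the left, and *Tgfb1* at -0.01.

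Proteins that bind AU-rich or stem-loop elements in cytokine mRNAs set how long these transcripts last. All 15 genes of this group were tested, 0 were higher and 1 was lower (6.67%, against 12.3% of all genes tested). Without AclyM-KO replicate 2, 2 were lower, beside 2136 calls over all genes, against 1416. The log2 fold changes of the 15 genes had a median of -0.04. With all 6 libraries the lower gene was *Zfp36l1*, a decay factor, which fell from 218 ± 3.70 to 153 ± 23.5 CPM (SD, n = 3 each, log2 change -0.52, adjusted p 0.00618 in edgeR).

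Among 34 other cytokine and growth factor genes, 33 were in the table and 19 were tested, of which 4 were higher and 3 lower (36.8%, against 12.3% of all genes tested), and their log2 fold changes had a median of -0.07. The count of higher genes was 2 without control replicate 1, 2 or 3 or AclyM-KO replicate 3 and 5 without AclyM-KO replicate 2, and that of lower genes was 3 each time. Over all genes, higher calls were 363 to 384 without a control library, against 768 with all libraries. They were 627 without AclyM-KO replicate 3 and 1105 without AclyM-KO replicate 2. *Gdf15*, a stress-induced cytokine of the TGF-β family, rose from 28.6 ± 1.22 to 56.4 ± 6.93 CPM (SD, n = 3 each, log2 change 0.97, adjusted p 1.48e-04 in edgeR). *Tnfsf13*, which encodes the B cell factor APRIL, fell from 61.4 ± 0.437 to 36.1 ± 1.37 CPM (log2 change -0.76, adjusted p 9.70e-05). *Il16*, a T cell chemoattractant gene, fell from 49.4 ± 1.39 to 28.1 ± 4.11 CPM (log2 change -0.83, adjusted p 8.44e-04), and *Vegfa*, an angiogenic factor gene, from 93.3 ± 9.87 to 61.5 ± 3.96 CPM (log2 change -0.60, adjusted p 0.00179). The remaining higher genes, named after their values were seen, were *Csf1* (log2 change 0.51, adjusted p 0.00186), *Igf1* (0.24, 0.0325) and *Spp1* (0.34, 0.0358). *Il33*, *Il34*, *Il17a*, *Csf2*, *Csf3* and *Ifng* were at 0 in all 6 libraries. Exons of *Adam17*, *Il1rap*, *Pycard*, *Il6ra*, *Il10rb*, *Thbs1*, *Slc7a2*, *Zfp36l1*, *Il16* and *Tnfsf13* also overlap another annotated gene.

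**Figure D4:**
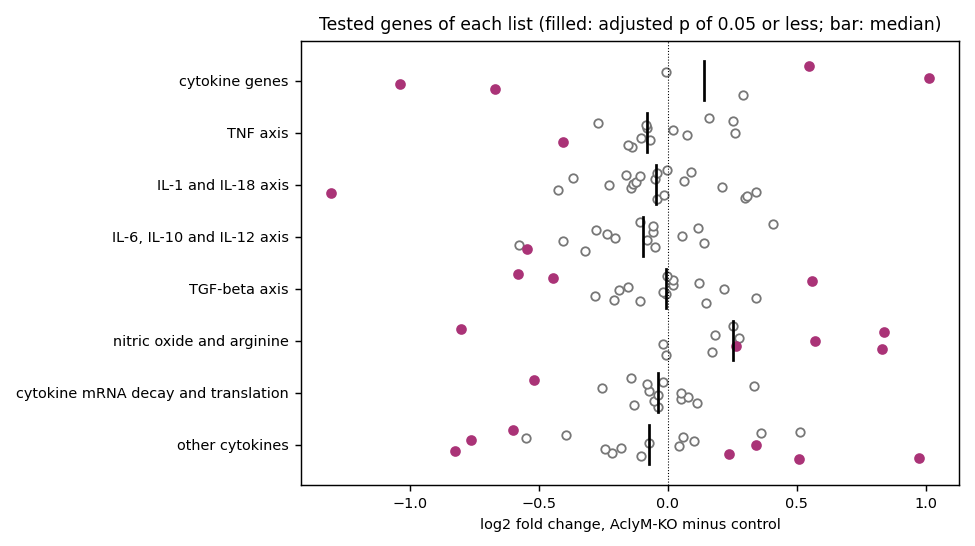
Log2 fold change (AclyM-KO minus control) of each tested gene of the cytokine genes and of the 7 lists, where filled points have an adjusted p of 0.05 or less in edgeR and the vertical bar is the median. The medians lie between -0.09 and 0.25, and called genes lie on both sides of 0 in the cytokine genes, the TGF-β axis, nitric oxide and arginine, and other cytokines.

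With each library left out in turn, *Il1rn* passed the test in all 6 cases and *Il1a* in 5 of 6, while *Tnf* and *Il18* each passed in 1 of 6. The direction of these 4 genes did not turn in any of the 6 cases.

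**Figure D5:**
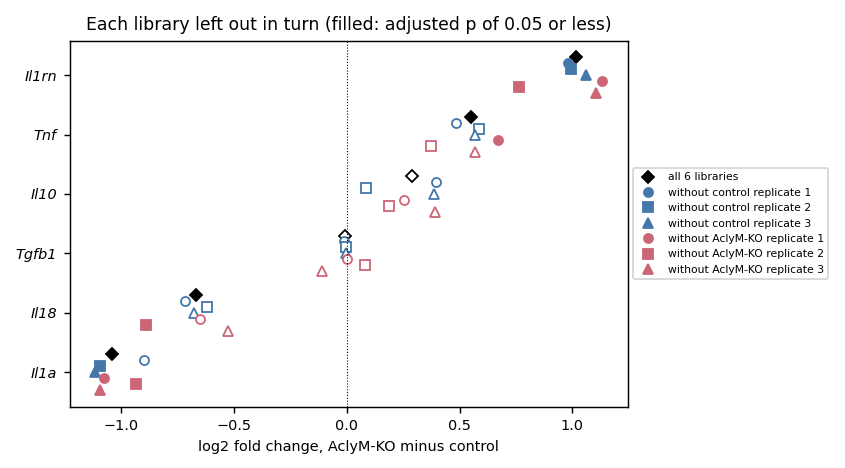
Log2 fold change of the 6 tested genes with all 6 libraries (diamonds) and with each library left out (blue for control, red for AclyM-KO, circle, square and triangle for replicates 1, 2 and 3), where filled symbols have an adjusted p of 0.05 or less in edgeR. *Il1rn* stays between 0.76 and 1.13 and *Il1a* between -1.12 and -0.90, and *Tgfb1* scatters around 0.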

How the data were processed

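Of the naive BMDMs, 3 control and 3 AclyM-KO libraries were analysed, built with a strand-specific KAPA mRNA kit. Per the labels and the study's methods, STAR 2.5.2b aligned reads to mm10, and HOMER2 summed tags per RefSeq transcript. The values the authors deposited are raw counts, neither normalized nor pooled. Of 12 value columns, 6 matched the labels, and 6 were not used. HOMER2 was run with default settings, and the strand option is not spelled out. The RefSeq release is not given in the sources used here.

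Symbols came from RefSeq (GRCm38.p6) for 35440 of 35745 transcripts and from GENCODE for 188. The transcript with the highest total stood for each symbol (for *Il6*, the shorter of 2 with equal totals), and lengths are those of matching GENCODE transcripts, on which the order of levels depends. R 4.3.3 with edgeR 4.0.16 (filterByExpr, TMM, quasi-likelihood test on genotype alone, Benjamini-Hochberg adjustment over 11470 genes) tested the counts, after a trial on simulated data. Within-library ratios were compared by exact permutation. The genes and lists were chosen with earlier results of these data known. Named genes were the 10 cytokine genes, *Acly*, their receptors, inhibitors and processing enzymes, and up to 4 genes per list with the smallest adjusted p past the threshold and no overlap between groups. Alternatives were DESeq2 1.42.0, limma-voom (limma 3.58.1) with sample weights, RLE scaling, unscaled totals, other filters, a replicate block, a threshold of 0.01, all transcripts, and single libraries left out. For ratios, 0 or 1 added counts and no division by length were tried. Some genes of the lists are counted but not reported here by name.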

Additional observations from a re-analysis of the deposited data

How the results depend on the processing

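Of the 10 cytokine genes, 4 were called, and 1 to 3 when single libraries were left out. A threshold of 0.01 left 1, *Il1rn*, without *Tnf* (0.55), *Il1a* (-1.04) and *Il18* (-0.67), and the other alternatives gave 4. With single libraries left out, log2 changes ran from 0.37 to 0.67 for *Tnf*, -1.12 to -0.90 for *Il1a*, 0.76 to 1.13 for *Il1rn*, 0.09 to 0.39 for *Il10*, -0.89 to -0.53 for *Il18*, and -0.108 to 0.0791 for *Tgfb1*, whose sign also turned with total counts only (0.0267) and limma-voom (0.0712). Over all genes, 1416 were called, 2187 with limma-voom and 557 at 0.01. With control replicate 1, 2 or 3 left out, 598, 658 and 628 were called. With AclyM-KO replicate 1, 2 or 3 left out, 1642, 2136 and 1051 were called. The list counts with single libraries left out are to be read beside these. With total counts only, 64.4% of calls were higher, against 54.2%. The pathway lists held 19 calls among 111 genes tested (17.1%, against 12.3% of all genes tested), 11 to 31 with single libraries left out and 29 with limma-voom. Signs also turned for *Gsdmd* (0.0214 with total counts only, 0.0520 with limma-voom, -0.0641 to 0.0690 with single libraries left out), *Nrros* (0.0251, 0.0506, and -0.0524 to 0.0697) and *Tgfbr1* (-0.00143 with limma-voom, -0.0336 to 0.0727 with single libraries left out). The log2 ratio differences ran from 1.52 to 2.12 (*Il1rn*) and 0.37 to 0.78 (*Il18*). The cause was not tested. Correlations between the deviations of same-numbered libraries were small (r from -0.05 to 0.11), and 4 of the 6 libraries correlated best with their own number, a hint from the data only. The replicate block gave 1583 calls over all genes, 4 among the cytokine genes and 24 in the pathway lists, and ratio differences of 1.89 and 0.57 with an exact permutation p of 0.25 each, the smallest that 3 pairs can give. Depth limits *Il1b*, *Nos2*, *Il12b* and *Il6*, which fell below the filter. Without it *Il1b* and *Nos2* did not pass (adjusted p 0.431 and 0.958).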
